A study of Homo sapiens with 16 samples.

Results

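The proteasome is a barrel-shaped protease that degrades proteins tagged with ubiquitin. Genes of its subunits, activators, inhibitor and dedicated assembly chaperones were selected by symbol (PSM, a letter from A to G and a number), which gave 48 of the 62714 genes in the files. They comprise 7 alpha and 7 beta subunits of the 20S core, 6 ATPases and 14 non-ATPase genes of the 19S cap, 4 assembly chaperones, the activators PSME3 and PSME4, the inhibitor PSMF1, 5 immunoproteasome genes (PSMB8, PSMB9, PSMB10, PSME1 and PSME2) and 2 genes known for a restricted tissue (PSMA8 in testis, PSMB11 in thymus). RNA-seq was performed on ribosomal RNA depleted RNA of 4 human B cell lymphoma lines, each as a pool in which CRISPR-Cas9 with lentiviral guides targeted CREBBP, the gene of a histone acetyltransferase (genotype CREBBP -/- in the labels), or AAVS, a control site (AAVS -/-). Each pool was cultured for 4 h at baseline (no IL4) or with IL4 at 10 ng/ml, so that 4 groups of 4 libraries were formed with 1 library per line. SU-DHL4 was line 1 and DOHH2 line 4. The labels contradict each other on which of OCILY7 and SUDHL10 was line 2 and which was line 3, so these are called by number. All cells carried the lentiviral Cas9 vector, the pools are not clones and may hold unedited cells, and a line stands for 1 tumor rather than a repeat culture.

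In the constitutive proteasome the catalytic beta subunits are PSMB6, PSMB7 and PSMB5. Interferons induce PSMB9, PSMB10 and PSMB8, which take the places of these 3 in newly built particles, and PSME1 and PSME2, which form the PA28 cap. The resulting immunoproteasome is abundant in lymphoid cells and generates peptides for MHC class I presentation. Transcription factors of the NRF family are known to raise the constitutive genes together when proteasome activity falls.

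Total counts ranged from 19649735 to 61981976 per library (median 44724334), and the members took 0.224% to 0.579% of them. Levels are given below as CPM, the usual unit of counts relative to the library total, after scaling with TMM factors. The 5 B cell markers examined (MS4A1, CD79A, CD79B, PAX5 and CD22) summed to 2219.9 to 5491 CPM per library. CREBBP RNA itself averaged 271 ± 99.9 CPM in the AAVS and 242 ± 51.5 CPM in the CREBBP pools at baseline, and 266 ± 66.1 against 198 ± 72.0 CPM with IL4 (SD, n = 4 lines). Neither difference passed the edgeR test (adjusted p = 0.851 and 0.218), and a frameshift need not lower RNA. The paper reports loss of CREBBP protein in the targeted pools by immunoblotting. The AAVS IL4 libraries carried transcripts that were nearly absent elsewhere. IGHM, the immunoglobulin mu chain, was at 119 to 1514 CPM there against at most 0.0823 CPM in the other 12 libraries, and CD44 was at 60.9 to 832 against at most 0.652 CPM. Of 12 T cell markers, 7 were higher with IL4 in the AAVS pools (CD3D, CD2, CD8B, TRAC, TRBC2, CD28 and IL7R), with the whole list summing to 108 to 231 CPM in these libraries and to 87.6 to 168 CPM in the AAVS baseline libraries. Most of the baseline sum was LCK, a kinase these lines express, which was at 83.7 to 155 CPM at baseline and at 37.4 to 90.2 CPM with IL4 (log2 fold change -0.94, edgeR adjusted p = 0.215), and in line 2 the whole sum was lower with IL4 (135 against 159 CPM). Of the 9 myeloid markers 6 passed the filter and 1 of these was higher (LYZ). Of the 6 stromal markers only COL1A1 and DCN passed the filter, and neither was higher. The CREBBP IL4 library of line 2 also stood apart, with 18.1% of its counts in small RNAs against 4.41% to 13.3% in the other 15. Every comparison with IL4 rests on some of these 5 libraries, and values without line 2 are given where they differ.

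The choice of genes by symbol did not use promoter sequence. The 5 immunoproteasome genes are known as interferon-induced, so an interferon element in them is not independent of their grouping. RefSeq windows on GRCh38.p14, which run from 250 bases before to 50 bases after a gene start, were present for 42 of the 48 members. The core of the interferon-stimulated response element, read as a pair of GAAA with any 2 bases between them and searched on both strands, occurred in windows of 4 of the 5 immunoproteasome genes. It occurred in 3 of the 37 other members with a window (PSMA4, PSMB4 and PSMG4), and in 4.38% of all 27305 genes in the table (3.57% of the 35116 windows). The stretches around the match in the 4 immunoproteasome genes are shown because the element is a known target of interferon signalling. Neither window of the constitutive PSMB5 held a match. They are printed 5′ to 3′ on the gene's strand with the match in capitals, and no match of another searched motif overlapped it.
PSMB8: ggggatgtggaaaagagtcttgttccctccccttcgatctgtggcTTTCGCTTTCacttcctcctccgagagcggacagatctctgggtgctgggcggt
PSMB10: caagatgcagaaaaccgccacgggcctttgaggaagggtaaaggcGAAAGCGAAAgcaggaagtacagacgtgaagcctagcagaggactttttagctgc
PSME1: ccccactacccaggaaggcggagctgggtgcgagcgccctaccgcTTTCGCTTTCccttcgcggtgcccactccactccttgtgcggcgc
PSME2: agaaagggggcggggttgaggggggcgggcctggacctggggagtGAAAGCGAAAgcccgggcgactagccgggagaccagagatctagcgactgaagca
The stretch of PSMB8 lies at chr6:32843998-32844096 (minus strand), inside the annotated gene. Its match begins 4 bases before the start of a shorter transcript form and runs across that start. That of PSMB10 lies at chr16:67936817-67936916 (minus), with the match 21 bases before the start. That of PSME1 lies at chr14:24136154-24136243 (plus), with the match 5 bases past the start base. That of PSME2 lies at chr14:24146584-24146683 (minus), with the match beginning 28 bases before a RefSeq transcript start. In all 4 genes the RefSeq start used lies inside the annotated gene. In PSMB8 and PSME1 the match is on the reverse strand and reads TTTCGCTTTC. The window of PSMB9 held no match, which says only that these letters are not in these 300 bases. Of the other motifs searched, the gamma-activated sequence TTCNNNGAA was in 8 of 42 members (9.38% of all genes), the STAT6 site (TTC and GAA with any 4 bases between) in 2 (7.80%), the antioxidant response element TGACNNNGC in 15 (16.1%), the CCAAT box in 20 (39.7%) and the cAMP response element TGACGTCA in 0 (2.25%). A match is a description of letters and not evidence of binding.

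Of the immunoproteasome genes, 4 lie in pairs in the genome and PSMB10 lies apart on chromosome 16. PSMB8 (chr6:32840717-32844679, minus) and PSMB9 (chr6:32844136-32859851, plus) overlap each other on opposite strands within the MHC class II region, and the annotated PSMB9 also overlaps TAP1, the peptide transporter gene. PSME1 (chr14:24136163-24138967, plus) and PSME2 (chr14:24143362-24147570, minus) are close neighbours. Whether the counting used strand is not given in the sources used here, so reads of such overlapping genes may not be told apart. Of the 48 members, 25 overlap a gene on the opposite strand. The 42 annotated pseudogenes named after members took counts equal to 0.112% to 0.850% of the members' own.

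All members but PSMB11 were expressed. PSMB11 had counts in 6 of the 16 libraries, at no more than 0.0909 CPM, and was not tested. PSMA8, described as a meiotic paralog of PSMA7, was present at 6.71 to 73.7 CPM. Per kilobase of transcript PSMA8 averaged 21.3 CPM in AAVS baseline libraries against 95.7 CPM for PSMA7. On the same scale PSMB9 had the lowest median level of the 47 (7.29 CPM per kilobase) and PSMB4, a non-catalytic beta subunit, the highest (165.5). PSMB9 also had the widest range over libraries, 16.8-fold, from 3.76 to 63.4 CPM.

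The question whether the 4 lines differ in their proteasome genes was asked with edgeR's quasi-likelihood F-test over the 16 libraries, with the condition as a term. Of the 47 members tested, 33 differed between lines at an adjusted p under 0.05 (70.2%), against 40.0% of all 21932 genes tested. All 5 immunoproteasome genes were among them, as were 5 of 6 19S ATPases, 5 of 7 alpha and 5 of 7 beta subunits, 8 of 14 non-ATPase genes and 3 of 4 chaperones. Each line is an AAVS and a CREBBP pool of the same cells, each cultured with and without IL4. The test therefore measures the spread between pools and treatments of a line, and compares these 4 lines only. In bulk RNA fewer cells of a kind and less RNA per cell cannot be told apart. Without line 2 the count was 16 of 47 (against 20.3% of all genes), without line 4 it was 14 (4005 of 19976 genes), and without the single CREBBP IL4 library of line 2 it was 28 (35.4%). Among genes with at least 10 counts in every library, 35 of 47 members differed, against 51.5% of 13073 genes.

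Line 2 had the highest mean of all 5 immunoproteasome genes and line 4 the lowest of 4 of them. PSMB9, the inducible counterpart of PSMB6, averaged 7.27 ± 4.21, 36.4 ± 18.1, 12.5 ± 12.7 and 6.34 ± 4.77 CPM in lines 1 to 4 (SD over 4 conditions). The range of line means was 5.74-fold, and 10.0-fold without the AAVS IL4 libraries (edgeR adjusted p = 0.000561 and 3.49e-05). In these 12 libraries line 2 was at 25.7 to 63.4 CPM and lines 1, 3 and 4 together at 3.76 to 7.78 CPM, with no overlap. PSMB8, the counterpart of PSMB5, averaged 22.6 ± 4.52, 64.0 ± 19.6, 20.3 ± 6.79 and 20.4 ± 2.41 CPM, so that lines 1, 3 and 4 lay within their spread of each other and line 2 lay above them (adjusted p = 6.13e-05). PSME1, an alpha chain of PA28, averaged 69.9 ± 15.1, 148 ± 52.4, 74.6 ± 21.1 and 41.9 ± 7.04 CPM (adjusted p = 0.00128). PSME2, its partner, differed 2.89-fold and PSMB10 2.82-fold between the highest and lowest line mean (adjusted p = 0.000134 and 0.00124).

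The 3 widest ranges of line means among all 47 members were those of PSMB9, PSME1 (3.54-fold) and PSMB8 (3.16-fold). Among the other 42 members, line 2 had the highest mean for 28 and line 4 the lowest for 33. The line 2 means include its CREBBP IL4 library, in which 34 of the 47 members had their highest level. How many would stay highest in line 2 without that library was not counted. The ATPase PSMC4 was at 18.6 to 33.9 CPM in line 4 and at 68.5 to 113 CPM in lines 1 to 3, so these did not overlap (3.04-fold, adjusted p = 0.000306). The narrowest ranges were those of PSMD9, a chaperone of 19S assembly (1.3-fold), the assembly chaperone PSMG2 (1.38-fold) and PSMD2, a scaffold of the 19S base (1.52-fold), with adjusted p of 0.235, 0.390 and 0.223. PSMA8 ran the other way, with its lowest mean in line 2 (2.69-fold, adjusted p = 0.0324). The heat map of levels places the lines side by side.

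**Figure D1:**
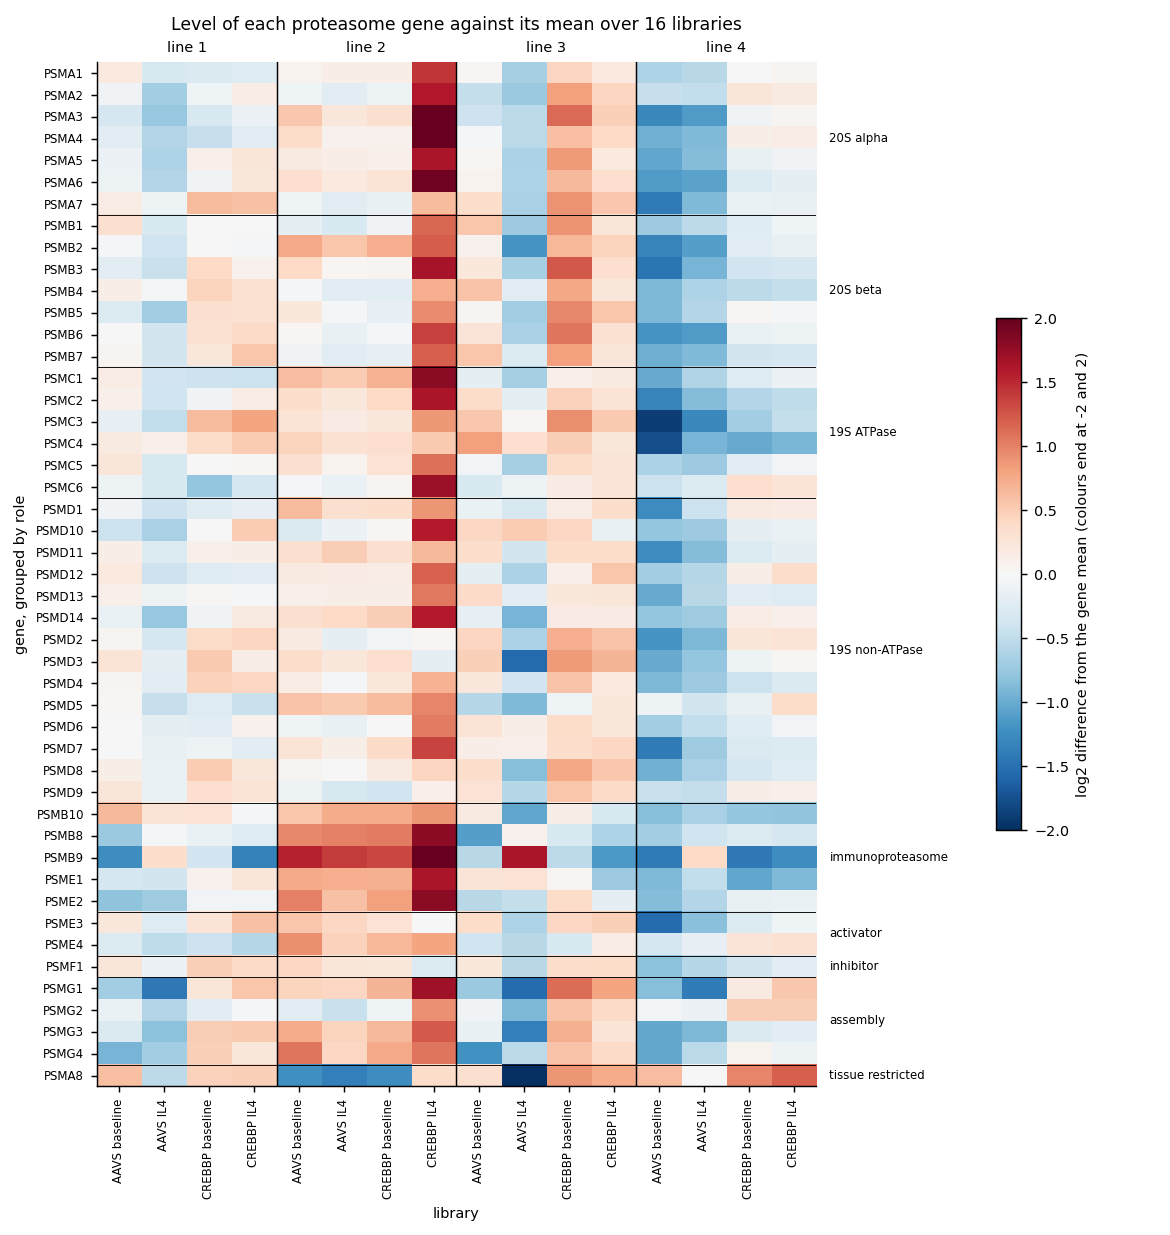
Each row is 1 of 47 expressed proteasome genes, grouped by role, and each column 1 of 16 libraries, grouped by line. Colour is the log2 difference of the level from that gene's mean over the 16 libraries, and 34 genes have their highest level in the CREBBP IL4 library of line 2 while 29 have their lowest in the AAVS baseline library of line 4.

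The effect of IL4 was first asked in the AAVS pools. No member passed the test (0 of 47 at an adjusted p under 0.05), against 2.40% of all 20310 genes tested, and no member was among the 3 genes of the series that fell. At an unadjusted p under 0.05 these were 3 members, against 3257 of all 20310 genes. With DESeq2 1 member was called (PSMB9), against 10.2% of all genes. The median fitted log2 fold change was -0.17 over the 47 members and 0.01 over all genes. Only 11 of 47 members had a positive value against 51.0% of all genes, yet 4 of the 5 immunoproteasome genes did. Median log2 differences of protein-coding genes with a canonical transcript under 1500 bases were -0.29, 0.01, -0.62 and 0.03 in lines 1 to 4. Those of 3000 bases or more had -0.25, -0.02, -0.24 and -0.02. The 23 members under 1500 bases had -0.37, -0.16, -0.68 and 0.19, and the 11 of 3000 bases or more -0.41, -0.15, -0.52 and 0.23. Other genes were thus also lower in lines 1 and 3, and in line 4 the members were higher. The part of this shift was not tested.

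PSMB9 had the largest value. It was at 4.30, 29.6, 6.92 and 3.81 CPM at baseline and at 13.0, 26.8, 31.6 and 13.5 CPM with IL4 in lines 1 to 4. It was thus higher with IL4 in lines 1, 3 and 4 and slightly lower in line 2, where its baseline was already high. The log2 fold change was 1.46 ± 0.42 (SE), with an unadjusted p of 0.0118 and an edgeR adjusted p of 0.175. Without line 2 it was 1.95 (edgeR adjusted p = 0.0143), a setting in which 4.93% of all genes passed against 2.40% with all lines. PSMB8 went from 16.3, 52.8, 12.7 and 16.9 to 26.6, 54.4, 28.7 and 20.7 CPM, which is higher in 4 of 4 lines with overlap of the groups. Its log2 fold change was 0.63 ± 0.25 (edgeR adjusted p = 0.292), and it was the only member higher in every line, against 15.7% of all genes. PSMB10, PSME1 and PSME2 had values of -0.22 ± 0.27, 0.17 ± 0.16 and 0.08 ± 0.19.

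Some other interferon-regulated genes had high values in the same libraries. Among them was TAP1, which overlaps the annotated PSMB9, so that reads of these genes may not be told apart. TAP1 ranged from 49.6 to 113 CPM over the 4 AAVS libraries with IL4 and from 12.6 to 41.6 CPM over the other 12, with no overlap. IRF1, a transcription factor of interferon responses, was at 49.0 to 155 against 24.8 to 48.9 CPM. In line 4 it went only from 48.7 CPM at AAVS baseline to 49.0 CPM with IL4. The 8 interferon and antigen processing genes of a chosen list had log2 fold changes from -0.03 (TAP2) to 1.86 (TAP1), with a median of 0.78. Apart from TAP1 and IRF1, their levels overlapped between the 4 AAVS IL4 libraries and the other 12. None of the 8 passed the test. All 5 IL4-induced genes of the list did (CISH, NFIL3, FCER2, QSOX1 and MOB3C). The transcripts nearly absent elsewhere, such as IGHM and CD44, were present in these same 4 libraries, and their part in the values of PSMB8 and PSMB9 was not tested.

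The largest negative values belonged to PSMA8 and PSMD3. PSMA8 went from 49.1, 13.8, 40.5 and 49.4 to 22.5, 12.5, 6.71 and 32.4 CPM, lower in 4 of 4 lines, with a log2 fold change of -1.02 ± 0.39 (adjusted p = 0.281). PSMD3, a 19S lid subunit, had -0.50 ± 0.37, resting mainly on line 3, where it went from 176 to 42.9 CPM. The constitutive catalytic genes PSMB5, PSMB6 and PSMB7 had values between -0.28 and -0.21, each lower in 3 of 4 lines, and PSME3, the nuclear activator, had -0.16 ± 0.28. In all, 7 of 47 members were lower in every line (14.9%), against 14.5% of all genes.

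**Figure D2:**
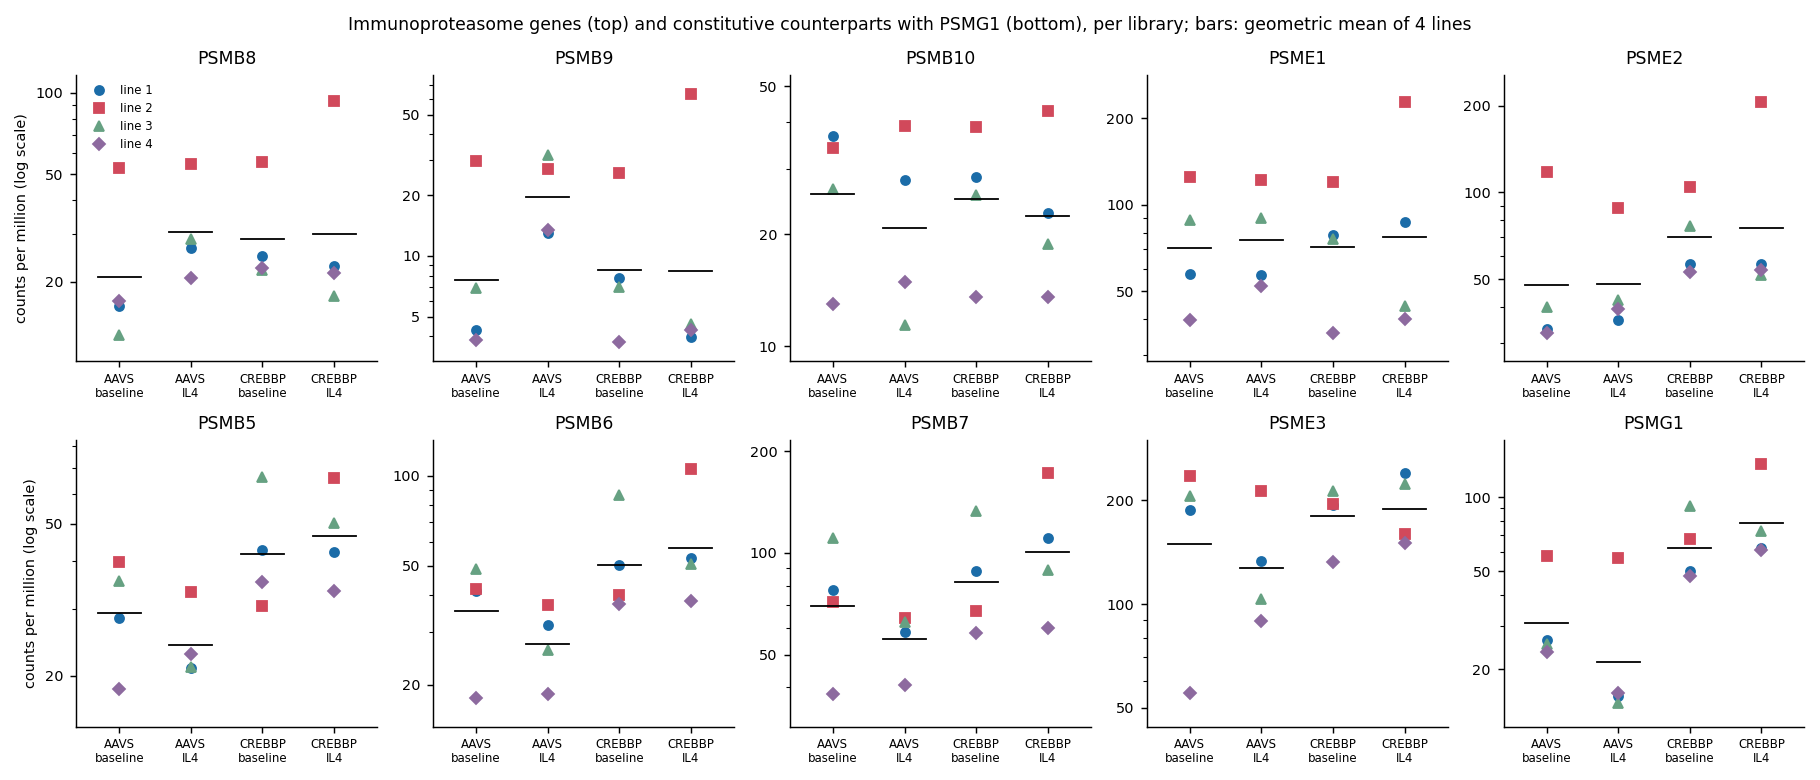
Points are TMM-scaled CPM on a log axis, 1 per library, with the 4 groups along the horizontal axis, a marker for each line and a bar at the geometric mean. Line 2 lies above the others for PSMB8 and PSMB9 at baseline, and PSMB9 in lines 1, 3 and 4 is higher in the AAVS IL4 libraries (13.0 to 31.6) than in the other groups.

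In the CREBBP pools no member passed the test of IL4 (0 of 47), and edgeR called 0% of all 18282 genes tested. DESeq2 called 1 gene and no member. At an unadjusted p under 0.05, 1 member and 2.75% of all genes passed. The median log2 fold change was 0.15 for the members and -0.04 for all genes, and 40 of 47 members had a positive value against 45.5% of genes. Without line 2, 17 of 47 were positive against 46.5% of genes, with a median of -0.04. PSMD12, a 19S lid subunit named here after its values were seen, was the single member with an unadjusted p under 0.05 and was higher in 4 of 4 lines (0.41 ± 0.18, edgeR adjusted p = 0.924). Among the named members, those of PSMB8, PSME1, PSME2, PSMB5, PSMB6 and PSMB7 turned negative when this line was left out. PSMA4, with the second largest value of the 47 (0.46 ± 0.32), was at 81.4, 119, 170 and 121 CPM at baseline and at 97.1, 470, 149 and 124 CPM with IL4. PSMC6, a 19S ATPase with the largest value (0.49 ± 0.27, adjusted p = 0.924), went from 46.1 to 145 CPM in line 2 and from 56.4 to 53.8 CPM in line 4. PSMB9 was at 3.99, 63.4, 4.60 and 4.29 CPM with IL4, against 7.78, 25.7, 7.05 and 3.76 CPM at baseline.

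In that line 2 library the shift also followed transcript length across all genes. Protein-coding genes with a canonical transcript under 1500 bases had a median log2 difference of 0.46 from CREBBP baseline in the same line, and those of 3000 bases or more had -0.12. The 23 members under 1500 bases had a median of 1.05 and the 11 members of 3000 bases or more one of 0.48. In line 3 the same 2 classes of all genes differed by -0.40 and 0.16, and the members by -0.43 and 0.07. The part of length and of the 18.1% of small RNA counts in these values was not tested.

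CREBBP pools were then compared with AAVS pools at baseline. No member passed (0 of 47), and edgeR called 0% of all 18936 genes, while 12.8% had an unadjusted p under 0.05. DESeq2 called 511 genes (2.7%) and 1 member (PSMG1). Of the members, 9 had an unadjusted p under 0.05 with edgeR. The fitted values pointed one way, with 46 of 47 members positive against 47.8% of all genes and a median log2 fold change of 0.31 against -0.03. The members share the same 8 libraries, so they are not 47 independent observations, and 6 of 47 were higher in every line (12.8%), against 9.67% of genes. Without line 2 this count was 25 of 47 (53.2%) against 20.3% of genes. The median log2 fold change of the members was 0.39, 0.43, 0.27 and 0.14 without line 1, 2, 3 and 4 in turn. Of the 47 members, 29 had their lowest level of all libraries in the AAVS baseline library of line 4, which enters this comparison. Transcript length moved with this comparison too. Protein-coding genes under 1500 bases had median log2 differences of 0.27, 0.08, 0.39 and 0.19 in lines 1 to 4, and those of 3000 bases or more had -0.11, -0.02, -0.16 and 0.01. The 23 short members had 0.31, -0.06, 0.55 and 0.60, and the 11 long members -0.14, -0.07, 0.28 and 0.89. In line 1 the members were thus close to other genes of their length, and in line 4 they were above them in both classes. The part of length in the values was not tested.

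Assembly chaperones had the largest values. PSMG1, which pairs with PSMG2 to guide the alpha ring, was at 26.2, 57.6, 25.3 and 23.6 CPM in AAVS and at 50.0, 67.7, 92.1 and 47.7 CPM in CREBBP pools. It was higher in 4 of 4 lines, with 1.01 ± 0.25 and an edgeR adjusted p of 0.220. PSMG4, partner of PSMG3, was at 6.75, 26.9, 5.54 and 6.34 against 17.9, 21.8, 19.1 and 13.4 CPM, higher in lines 1, 3 and 4 (1.01 ± 0.33, adjusted p = 0.287). Without line 2 both passed (edgeR adjusted p = 0.0220 and 0.0206), among 3 of 47 members and 2.68% of all genes that did. No member passed without line 1, 3 or 4. The constitutive PSMB5 and PSMB6 had 0.52 ± 0.24 and 0.53 ± 0.22, each higher in 3 of 4 lines, and PSMB7 and PSME3 had 0.24 ± 0.19 and 0.27 ± 0.25. Of the immunoproteasome genes, PSME2 had 0.56 ± 0.22 and PSMB8 0.47 ± 0.20 (adjusted p = 0.345 and 0.369). PSMB9 had 0.16 ± 0.25, PSME1 0.01 ± 0.19 and PSMB10 -0.04 ± 0.19, the last being the single negative value.

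With IL4 the CREBBP pools differed from the AAVS pools in 2 of 47 members, both higher (4.26%), against 0.965% of all 19581 genes called higher and 4.39% called in either direction. PSMG1 rose most. It was at 15.6, 56.5, 14.6 and 16 CPM in AAVS and at 62.2, 137, 73.0 and 61.2 CPM in CREBBP pools, so the groups did not overlap. The log2 fold change was 1.85 ± 0.24 (3.6-fold, edgeR adjusted p = 0.0149). PSMD14, the deubiquitinase of the 19S lid, was at 46.9, 105, 41.6 and 48.5 against 90.2, 240, 89.5 and 85.2 CPM, higher in each line although the groups overlap through line 2. Its log2 fold change was 0.98 ± 0.21 (1.97-fold, adjusted p = 0.0495). Both calls were lost without line 1, 3 or 4 and without the line block, while the direction stayed.

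Beyond these 2 the pattern was broad in sign and did not pass the test. Of 47 members, 34 were higher in every line (72.3%), against 16.5% of all genes, and without line 2 it was 37 (78.7%) against 29.0%. The members share the same libraries, so here too they are not 47 independent observations. The AAVS libraries compared here are those that carried transcripts nearly absent elsewhere, such as IGHM and CD44, and the part of this in the members' values was not tested. The median log2 fold change was 0.68 for members and -0.05 for all genes. It was 1.04 for alpha subunits, 0.99 for chaperones, 0.87 for beta subunits, 0.65 for 19S ATPases and 0.56 for non-ATPase genes, and 0.00 for the 5 immunoproteasome genes. All 7 alpha subunits, all 7 beta subunits and all 4 chaperones were higher in 4 of 4 lines, as were 11 of 14 non-ATPase genes and 3 of 6 ATPases. Short protein-coding genes were higher here as well, with median log2 differences of 0.49, 0.57, 0.63 and 0.19 in lines 1 to 4 for those under 1500 bases and of 0.03, -0.18, 0.27 and 0.13 for those of 3000 bases or more. The short members had 0.62, 1.22, 0.89 and 0.55 and the long members 0.38, 0.56, 0.91 and 0.72, above the other genes of their length in every line. The part of length in the members' values was not tested. The number of members called depended on the procedure, with 21 by DESeq2 (21.2% of all genes) and 23 with all 16 libraries in a single fit (4393 of all 21932 genes).

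PSMB6 had 1.03 ± 0.24 (adjusted p = 0.0586), PSMB5 0.92 ± 0.23 (0.0694) and PSMB7 0.82 ± 0.25 (0.104), each higher in 4 of 4 lines. PSME3 had 0.54 ± 0.29 and was lower in line 2. PSMA8 had 1.68 ± 0.37 (adjusted p = 0.0516), from 22.5, 12.5, 6.71 and 32.4 to 44.8, 41.7, 54.2 and 73.7 CPM, and these groups did not overlap. The AAVS IL4 libraries are shared with the first comparison, in which PSMA8 had its largest negative value.

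The most negative values were those of PSMB9 and PSMB8. PSMB9 was lower in lines 1, 3 and 4 (3.99 to 4.60 against 13.0 to 31.6 CPM) and higher in line 2 (63.4 against 26.8 CPM), which gave -1.36 ± 0.67 (adjusted p = 0.246). Without line 2 it was -2.05 (edgeR adjusted p = 0.0151), a setting in which 12.4% of all genes passed against 4.39% with all lines. It did not pass without line 1, 3 or 4. PSMB8 had -0.06 ± 0.30, lower in 2 lines and higher in 2. PSME1 and PSMB10 had 0.00 ± 0.35 and 0.07 ± 0.27, and PSME2 had 0.62 ± 0.25, higher in 4 of 4 lines (adjusted p = 0.176). In this comparison TAP1 and NLRC5, a transactivator of MHC class I genes, fell (log2 fold changes of -1.87 and -1.98, adjusted p = 0.0279 and 0.0463), as 2 of the 8 interferon and antigen processing genes. The T cell marker list had 8 of 12 genes lower, and IGHM and CD44 were lower as well, and their part in the values of PSMB9 was not tested.

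**Figure D3:**
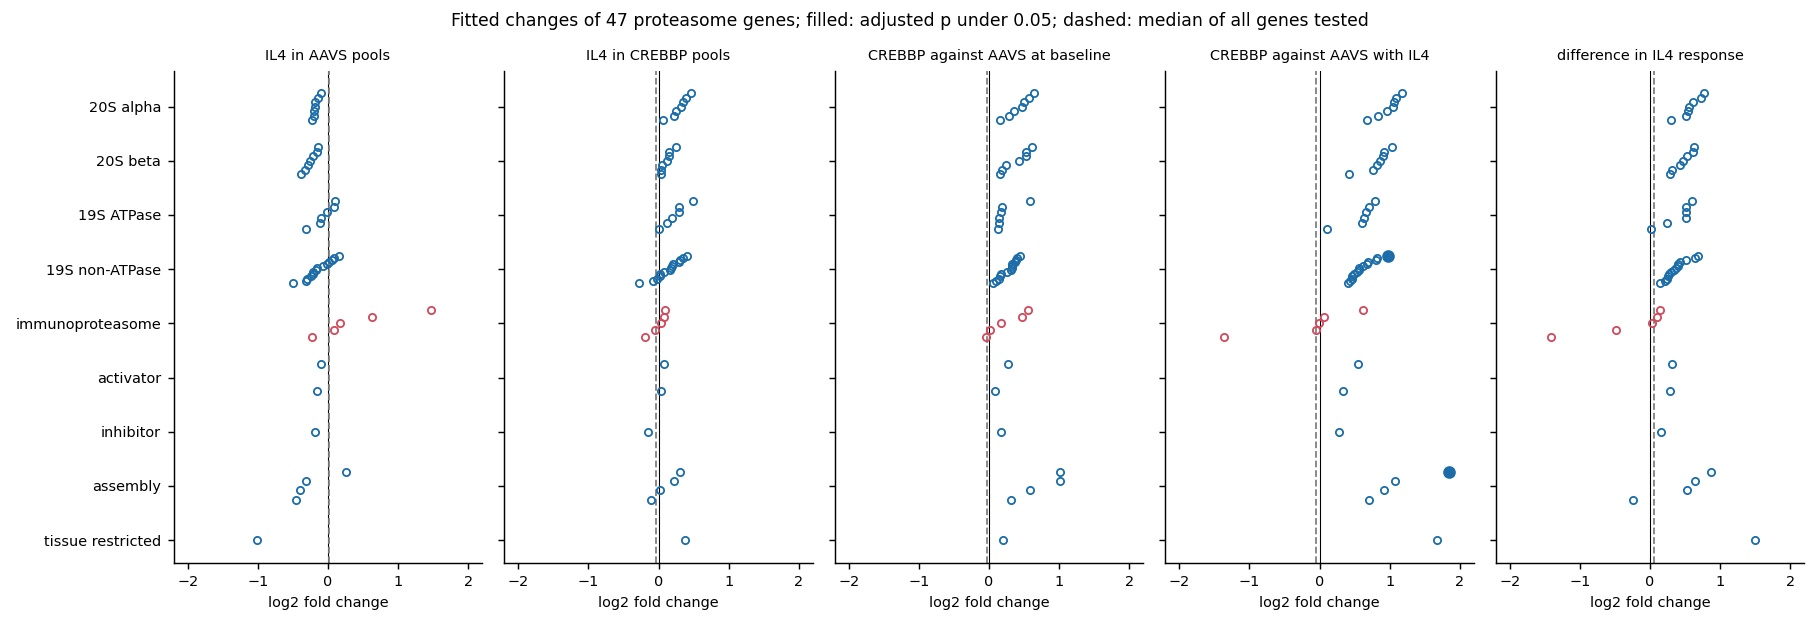
Each point is the fitted log2 fold change of 1 of 47 members, by role and comparison, in red for immunoproteasome genes, and filled where the adjusted p is under 0.05. PSMG1 (1.85) and PSMD14 (0.98) are the filled points, and the dashed lines mark the median of all genes tested, between -0.05 and 0.05.

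The difference in IL4 response was the last comparison, asking whether IL4 acted differently in CREBBP and AAVS pools. No member passed (0 of 47), against 0.638% of all 21932 genes, and 5 members and 13.3% of genes had an unadjusted p under 0.05. DESeq2 called no member either, against 5.01% of all genes. PSMA8 had the largest positive value, 1.49 ± 0.54, and PSMG1 had 0.87 ± 0.31, each positive in 4 of 4 lines (adjusted p = 0.268 and 0.269). PSMB9 had -1.41 ± 0.60, negative in lines 1, 3 and 4 (adjusted p = 0.338), and -2.44 without line 2 (adjusted p = 0.0240), where 1.19% of all genes passed. PSMB8 had -0.49 ± 0.32 (adjusted p = 0.543). The median was 0.40 for the members and 0.05 for all genes. This contrast uses the same libraries as the others and adds no separate sample.

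The balance within each pair was read from the log2 ratio of an immunoproteasome transcript to its constitutive counterpart, per base of canonical transcript and within a library. Each value is thus free of library scaling, but not of the shifts with transcript length described above. PSME1 (965 bases) and PSME3 (3182 bases) differ most in class of length, and the part of length in the ratios was not tested. PSMB9 to PSMB6 was at -3.57, -0.81, -3.12 and -2.55 in the AAVS baseline libraries and at -1.59, -0.76, -0.03 and -0.78 with IL4. The ratio was higher with IL4 in 4 of 4 lines, by a mean of 1.72 ± 1.26 (SD), though only by 0.04 in line 2. In CREBBP pools it was at -3.00, -0.94, -3.92 and -3.62 at baseline and at -4.04, -1.04, -3.76 and -3.46 with IL4, with a mean change of -0.21 ± 0.57. PSMB9 was therefore at 5.72% to 32.7% of the pair's transcripts with IL4 in the CREBBP pools and at 24.9% to 49.5% in the AAVS pools. CREBBP pools with IL4 had a lower ratio than AAVS pools in 4 of 4 lines (mean -2.29 ± 1.45).

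PSMB8 to PSMB5 was lower in CREBBP than in AAVS pools with IL4 in 4 of 4 lines (mean -0.97 ± 0.78), and was higher with IL4 in 3 of 4 lines of the AAVS pools (0.84 ± 0.87). PSMB10 to PSMB7 had a mean change with IL4 of 0.03 ± 0.31 in AAVS and -0.44 ± 0.61 in CREBBP pools, and PSME1 to PSME3 had 0.33 ± 0.56 and 0.05 ± 0.85. Of the 20 tests (4 pairs in 5 comparisons), the exact two-sided sign-flip test over 4 lines gave p = 0.125 in 4, which is the smallest p that 4 lines allow, and 0.625 after adjustment over the 20. The test could therefore not reach 0.05. In line 2 the PSMB8 to PSMB5 ratio was above 0 in each of its 4 libraries (0.30 to 0.76), so PSMB8 had more transcripts per length than PSMB5 there, and in the baseline libraries of the other lines it was below 0.

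**Figure D4:**
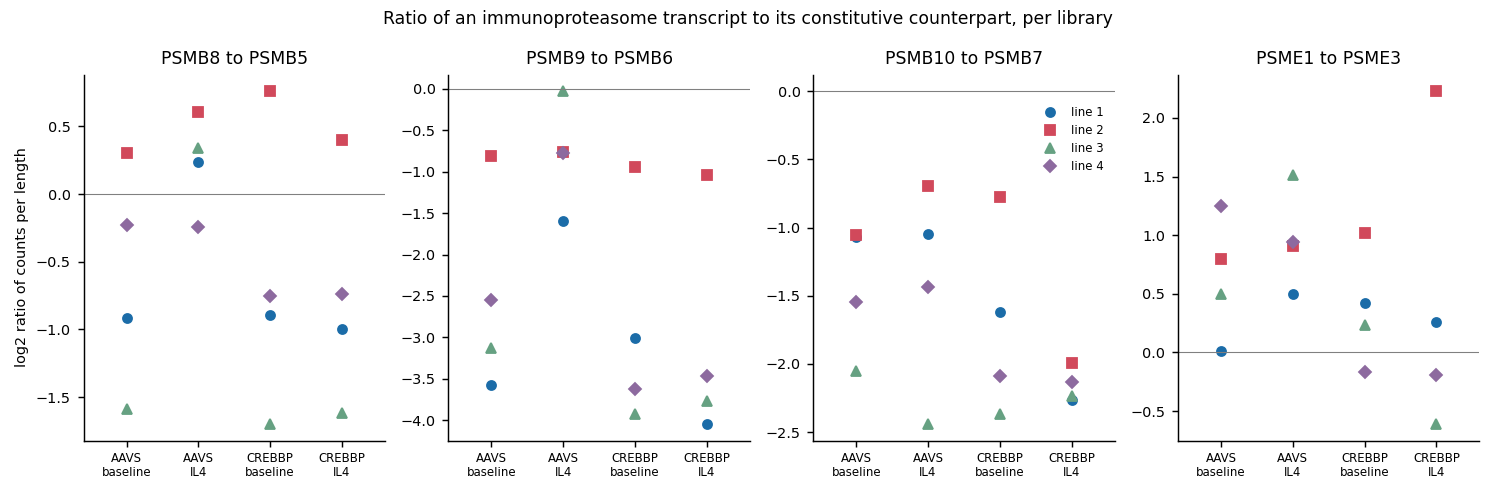
Points are log2 ratios of counts per canonical transcript length for 4 pairs of transcripts, 1 point per library, with the 4 groups along the horizontal axis and a marker for each line. PSMB9 to PSMB6 lies between -1.59 and -0.03 in the AAVS IL4 libraries, and in lines 1, 3 and 4 it lies between -4.04 and -2.55 in all other libraries.

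Proteins that act with the proteasome but are not named PSM were examined as a list of 15. All were tested, and only UCHL5, a deubiquitinase of the 19S cap, passed in any of the 5 comparisons, with IL4 in CREBBP against AAVS pools (log2 fold change 1.16 ± 0.21, adjusted p = 0.0332). It was at 22.0, 70.2, 30.9 and 26.4 CPM in AAVS and at 50.9, 164, 61.5 and 66.2 CPM in CREBBP pools. The median of the 15 there was 0.55 against -0.05 for all genes. Of 9 regulators of proteasome genes, among them NFE2L1 and NFE2L2, 0 passed in any comparison, with a median of 0.38 for IL4 in AAVS pools and of -0.21 for CREBBP against AAVS pools with IL4.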

How the data were processed

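Per the labels, RNA was taken from 16 cultures (50 ng of input RNA, where the methods of the study give a smaller amount) and sequenced as paired 151 base reads. The authors trimmed the reads with Cutadapt 2.3, checked them with FastQC 0.11.8, mapped them to GRCh38 with STAR 2.7.8a and counted genes with RSEM 1.3.3. What the authors deposited are estimated counts, 1 whole number for each gene, without normalization, and the methods say that technical replicates were averaged and refer the cell lines to the same procedure.

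From these counts, genes were filtered (filterByExpr), scaled by TMM and tested in edgeR 4.0.16 (quasi-likelihood test, line as a block, Benjamini-Hochberg adjustment over all genes, threshold 0.05) in R 4.3.3. DESeq2 1.42.0 and Python 3.11.15 served for alternatives and summaries. The pairing comes from the shared cell line, and deviations from the group means correlated within lines (median r of 0.409, 0.685, 0.227 and 0.596). The tests were tested on simulated counts. Libraries of 1 group were no copies of each other (chi-square per degree of freedom of at least 111). Per-length levels used canonical transcripts of GENCODE release 44.

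The members and lists were chosen with earlier results of these data known. A gene of the B cell list and a gene of the interferon list are not reported here. Named were the 5 immunoproteasome genes, PSMB5, PSMB6, PSMB7 and PSME3, each member with an adjusted p under 0.05, and the 2 largest positive and negative changes per comparison; for lines, the 3 widest and narrowest ranges. Total counts of 19649735 to 61981976 limit mainly PSMB11.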

Additional observations from a re-analysis of the deposited data

Results flagged for a closer look

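In groups of 4 libraries, 18 of 64 levels of 16 named members had 1 library far from the other 3 (Dixon's test on the gap over the range), all of them in line 2. Chance flags about 1 in 20 groups that were chosen without regard to their values. Some of the named members, PSMA4 and PSMC6 among them, were picked for large changes in these same libraries. The 18 of 64 can therefore not be measured against that share. The groups also share a line, so these levels are not independent.

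At AAVS baseline, line 2 was high for PSMB8 (52.8 CPM), PSMB9 (29.6 CPM), PSME2 (118 CPM), PSMG1 (57.6 CPM) and PSMG4 (26.9 CPM). In the AAVS IL4 group it was high for PSMB5 (33.2 CPM), PSMD14 (105 CPM), PSME2 (88.0 CPM), PSMG1 (56.5 CPM) and PSMG4 (17 CPM), and at CREBBP baseline for PSMB8 (55.5 CPM). In the CREBBP IL4 group it was high for PSMA4 (470.2 CPM), PSMB8 (93.4 CPM), PSMB9 (63.4 CPM), PSMC6 (145 CPM), PSMD14 (240 CPM), PSME2 (206 CPM) and PSMG1 (137 CPM). The last 7 come from the library with 18.1% of its counts in small RNAs, whose part in them was not tested. PSMB8, PSMB9, PSME2, PSMD14 and PSMG1 also had line 2 far from the others in groups without that library.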

How the results depend on the processing

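Most values kept their sign, but few calls were stable. Of the 63 values of named members, 61 kept sign and side of the threshold with DESeq2's factors in edgeR, 56 with DESeq2, 56 without the line block and 48 to 59 when 1 line was left out. PSMG1 and PSMD14, called with IL4 in CREBBP against AAVS pools, kept their sign under every alternative run for them.

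The numbers of members called moved as follows, with the share of all genes called in brackets. For IL4 in AAVS pools, 0 (2.40%) became 1 with DESeq2 (10.2%) and with no filter on low counts (4.85%), and 0 to 1 when a line was left out (0.310% to 4.93%). For IL4 in CREBBP pools it was 0 throughout. For CREBBP against AAVS pools at baseline, 0 (0%) became 1 with DESeq2 (2.7%) and 2 with no filter (1.63%), and 0 to 3 without a line (0% to 2.68%). With IL4, 2 (4.39%) became 21 with DESeq2 (21.2%), 23 with all 16 libraries in a single fit (4393 of 21932 genes), 14 with no filter (9.34%), 0 with no replicate block (2.76%), and 0 to 7 without a line (0.124% to 12.4%). With at least 10 counts in every library PSMA8 was called in place of PSMD14. For the difference in IL4 response, 0 (0.638%) became 2 with no filter (1191 of 39680 genes) and 0 to 1 without a line (0.0724% to 1.19%). For lines, 33 (40.0%) became 17 with no condition term (26.2%) and 35 with at least 10 counts in every library (51.5%). Without a line it was 14 to 36 (4005 of 19976 genes to 47.4%). Members higher in every line at baseline went from 6 to 25 without line 2, where fewer lines have to be higher. The fits without the single CREBBP IL4 library of line 2 and these counts without line 2 were added after the data were seen. Without the line block no call was gained. The causes of the other moves were not tested.

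Signs turned for small values. With no replicate block these were PSME2 (-0.070) for IL4 in AAVS pools, PSMB9 (0.74) for IL4 in CREBBP pools, PSMB9 (-0.0098) at baseline, and PSMB8 (0.27) and PSME1 (0.33) with IL4 between pools. With DESeq2 and with its factors PSME1 was -0.047 in the difference in IL4 response. Without 1 line at a time, the lowest and highest log2 fold changes were as follows. For IL4 in AAVS pools they were -0.39 and 0.00089 for PSMB10, -0.020 and 0.23 for PSME2, and -0.44 and 0.014 for PSME3. For IL4 in CREBBP pools they were -0.18 and 0.16 for PSMB8, -0.48 and 0.26 for PSMB9, -0.17 and 0.38 for PSME1, -0.19 and 0.31 for PSME2, -0.18 and 0.31 for PSMB5, -0.23 and 0.47 for PSMB6, -0.084 and 0.55 for PSMB7, and -0.060 and 0.17 for PSME3. For CREBBP against AAVS pools at baseline they were -0.068 and 0.32 for PSMB9, -0.086 and 0.066 for PSMB10, -0.14 and 0.078 for PSME1, and -0.040 and 0.48 for PSME3. With IL4 they were -0.29 and 0.18 for PSMB8, -0.12 and 0.22 for PSMB10, and -0.27 and 0.36 for PSME1. For the difference in IL4 response they were -0.051 and 0.16 for PSMB10, -0.39 and 0.31 for PSME1, and -0.43 and 0.36 for PSME2.

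For the log2 ratios without 1 line, the lowest and highest mean changes were -0.21 and 0.12 for PSMB8 to PSMB5 between pools at baseline, -0.33 and 0.072 for PSMB9 to PSMB6 with IL4 in CREBBP pools, and -0.085 and 0.16 for PSMB10 to PSMB7 with IL4 in AAVS pools. For PSME1 to PSME3 they were -0.34 and 0.34 with IL4 in CREBBP pools, -0.49 and 0.12 between pools at baseline, and -0.74 and 0.25 for the difference in IL4 response. With 0.5 added to each count, all 20 mean changes kept their sign.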
